A study of Mus musculus with 6 samples.

Results

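The regions described here are stretches of the mouse genome where methylation of cytosines followed by guanine (the CG context) was called different between 2 groups of embryos and where the region touches an exon or an untranslated region (UTR) of a transcript. They were taken from the authors' list of differentially methylated regions by their annotation alone: CG regions outside chromosomes X and Y with at least 1 entry for an exon, a 5′ UTR or a 3′ UTR. This gave 275 of the 872 CG regions outside X and Y, or 31.5%. The whole list holds 9707 regions, of which 880 are CG and the others lie in the CHG and CHH contexts, where H is any base but G. Direction was read from the depressed minus the normal level.

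The samples were 6 single embryos of C57BL/6 background taken as late blastocysts at embryonic day 4.5, with a library made from each by whole-genome bisulfite sequencing, which reads unmethylated cytosines as thymine. All had been injected as fertilised eggs with sperm small RNAs at 2 ng/µl, were cultured at 37 °C and were collected about 108 h later. In the normal group (replicates 1, 2 and 4) the RNA came from normal mice, and in the depressed group (replicates 1, 3 and 4) from depressed mice. Uninjected embryos were not analysed here. The levels are the authors' means over each group of 3 embryos, without values per embryo or read coverage, so the depth is unknown, no difference could be set against the spread between embryos, and no test was made. Because the list holds regions that the authors called different, the presence of a difference in each region is a property of the list.

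In mammals CG methylation is copied at cell division by a maintenance methyltransferase, and bodies of genes are usually methylated while CpG islands, the CG-dense stretches at many promoters and first exons, usually are not. After fertilisation most methylation is lost, the blastocyst carries little of it, and new methylation is laid down around implantation. Methylation in the CHG and CHH contexts is sparse in most mammalian cells and is best known from oocytes, pluripotent cells and neurons.

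The exon and UTR regions differ widely in how closely their CG sites are packed, and this shows in the sequences of the regions that reach into a promoter window of RefSeq (GRCm38.p6, 250 bases before to 50 bases after a transcript start). Of the 275 regions, 7 overlapped such a window in a table that is not complete. For each, the 30 bases of the overlap with the most CG sites are printed 5′ to 3′ on the strand of the window's transcript, with CG in capitals. The first pair lies in CpG islands and the other 5 do not.
Arih1: CGCGCGCGtCGCGccatggactCGgaCGag
Saysd1: CGtgCGcaggCGcaCGgCGgcCGaggacag
Nfam1: gcactCGggccccaCGtCGcagaagccagc
Tmcc3: CGtggagtttccccCGagaccagcacagga
Cdsn: CGgcataaaggtccCGgtgcccatgagctt
Csnk1g2: ttccaggatactCGgtgctggaagtcctCG
Tbc1d24: agcatgaaggtcatgagatgCGctgtttgc

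The Arih1 run (chr9:59486333-59486362, minus strand) holds 8 CG sites, and the window around it holds 50, more than 99.1% of the 32851 windows. Arih1 encodes a ubiquitin ligase, and its 5′ UTR region had a mean CG methylation of 37.9% in the normal group and 2.49% in the depressed group. The Saysd1 run (chr14:20083125-20083154, minus strand) holds 6 CG sites, with 24 in its window, and the region was at 10.7% in normal and 1.42% in depressed. The median window holds 7. Around Cdsn (run chr17:35552142-35552171, plus strand), which encodes an adhesion protein of the skin, the window holds 5 CG sites, and the region was at 72.7% in normal and 5.31% in depressed. Tmcc3 (run chr10:94550835-94550864, plus strand) also has 5 in its window and was at 77.4 and 17.5%. The sparsest window, that of Tbc1d24 (run chr17:24199908-24199937, minus strand), a protein of synaptic vesicle traffic, holds 4, with levels of 68.0% in normal and 3.32% in depressed. For Csnk1g2, a casein kinase (run chr10:80629464-80629493, plus strand), the window holds 5 and the levels were 71.3 and 4.71%. For Nfam1, an immune receptor (run chr15:83033194-83033223, on the plus strand of the window of Gm32620), it holds 10 and the levels were 72.3 and 4.04%. So the 5 regions with at most 10 CG sites in their window stood between 68.0 and 77.4% in the normal group, above both island regions.

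The number of cytosines that the list gives for a region counts cytosines and not CG pairs. Of 15 region edges that fell inside promoter windows, 8 lay on the C and 7 on the G of a CG, so the strands enter separately, and 127 of the 275 regions have an odd number. It also leaves some out: the Tmcc3 region lies wholly inside its window, which shows 9 CG cytosines on both strands there, while the list gives 5, and the Nfam1 region shows 13 with 7 listed. Density below means listed cytosines per 100 bp.

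Of the 275 exon and UTR regions, 272 were lower in the depressed group (98.9%, exact binomial interval over regions 96.8 to 99.8%, which describes the list and not the embryos) and 3 were higher. Over all 872 CG regions outside X and Y, 99.0% were lower, so the share among exon and UTR regions is that of the list. The 272 lower regions name 234 genes in their exon or UTR entries, and 28 of them name none. Their median normal level was 69.2% (range 9.69 to 87.4%), their median depressed level 5.70% (range 0.564 to 28.5%), and in 117 of them the depressed level was below 5%. The median ratio of the normal to the depressed level was 11.0. They spanned a median of 123.5 bp with 6 listed cytosines. The 591 lower CG regions without exon or UTR had medians of 70.6% in normal and 4.67% in depressed, a median ratio of 15.0, 112 bp and 5 cytosines. None of the differences from those regions given below was tested, since regions are not replicates of a condition.

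**Figure D1:**
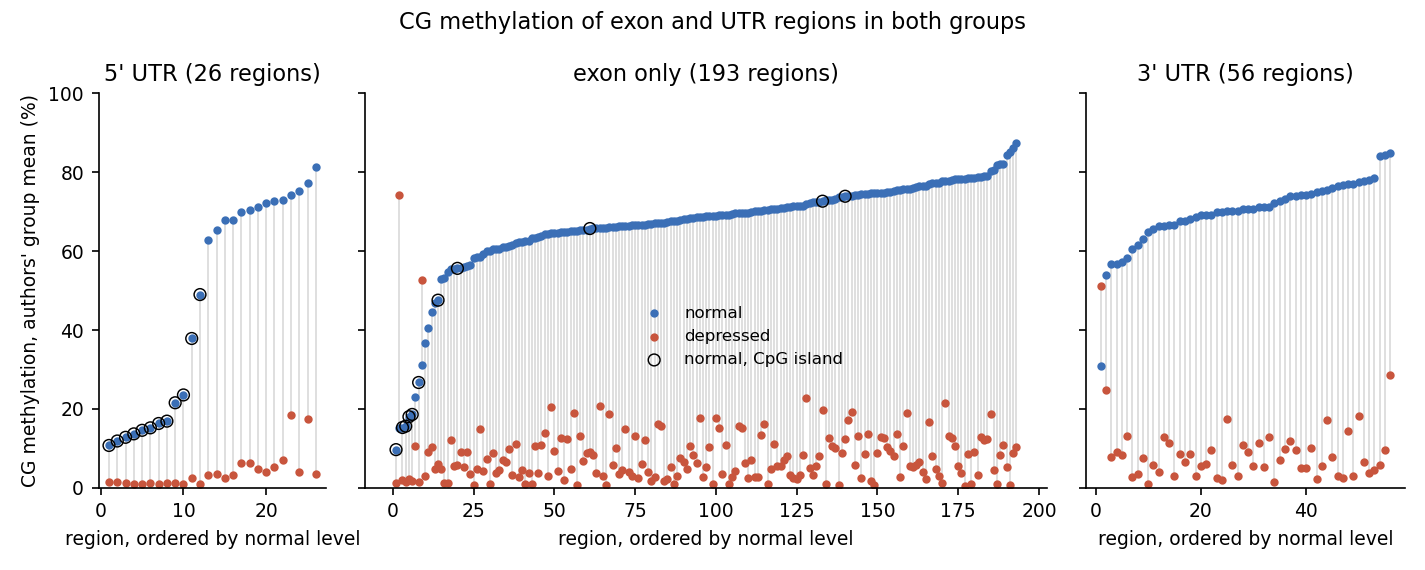
Mean CG methylation (%) of the normal (blue) and depressed (red) groups in each of the 275 regions, joined by a grey line and ordered by normal level within regions with a 5′ UTR entry, exon entries only, or a 3′ UTR entry. Black rings mark regions in CpG islands. The 12 island regions of the 5′ UTR class form a low step at the left, while the 3′ UTR class has no island region, and the 3 regions with the red point on top are the higher ones.

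By annotation, 26 lower regions touched a 5′ UTR, 3 of them with a 3′ UTR entry as well. Another 55 touched a 3′ UTR without a 5′ UTR, and 191 exons only. The 5′ UTR class held 2 separate kinds of region. In CpG islands lay 12 of the 26, with a median of 15.8% in normal and 1.19% in depressed (normal range 10.7 to 49.0%) and a median of 34.5 listed cytosines. The 14 outside islands had a median of 71.8% in normal and 4.37% in depressed (normal range 63.0 to 81.3%) and a median of 5 cytosines. The lowest normal level outside islands was therefore above the highest level inside them, and the class median of 64.1% describes neither kind. The median ratio of normal to depressed was 13.6 in islands and 16.5 outside.

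Strength below means the size of the authors' region statistic, and a region counts as in an island when it has an island entry. Among the island regions in 5′ UTRs, Mlf2, a myeloid leukemia factor family gene (chr6:124931565-124931675), was at 16.9% in normal and 1.26% in depressed over 31 listed cytosines. Stox2 (chr8:47288426-47288579), a winged-helix protein gene, was at 14.6 and 1.06% over 26. The zinc finger gene Zfp704 (chr3:9609824-9609894) packed 25 cytosines into 71 bp and was at 15.2 and 1.20%. Saysd1, shown above, had 21 in 62 bp. All of these levels in the normal group were well below those of the 5′ UTR regions outside islands.

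Enah, an actin regulator, had the highest normal level of the 5′ UTR island regions with over 40 cytosines, 23.6%, against 0.933% in depressed over 74 cytosines (chr1:182019641-182019859). The other such regions were Agpat2 (13.7 and 1.03%), an enzyme of phospholipid synthesis, Clptm1l (16.3 and 0.852%), Ppp1r15b (11.9 and 1.42%) and Nptx1 (12.8 and 1.18%), a secreted synaptic protein. The highest normal level of any island region in a 5′ UTR was that of BC005537 (chr13:24801618-24801745), 49.0% against 0.943% in depressed.

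Outside islands, the 5′ UTR regions with 1 named gene included Apoc3, an apolipoprotein of triglyceride-rich particles (chr9:46234565-46234743), at 81.3% in normal and 3.56% in depressed. Cx3cr1, the fractalkine receptor of microglia (chr9:120069806-120069867), was at 67.8 and 2.59%. Neil2, a DNA glycosylase of base excision repair (chr14:63191005-63192336), was at 63.0 and 3.36%. Zbtb38, a zinc finger protein that binds methylated DNA (chr9:96701028-96701174), was at 65.3 and 3.40%. Panx1, a pannexin channel (chr9:15007692-15010818), was at 18.4% in depressed against 74.4% in normal, the highest depressed level of the class. The Panx1 region spans 3127 bp and has a 3′ UTR entry as well. These regions have 4 to 9 listed cytosines each, so each level rests on few sites.

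The 55 lower 3′ UTR regions had a median of 70.7% in normal (range 53.9 to 85.0%) and 6.65% in depressed, and 0 of them lay in a CpG island. Nicn1, a subunit of a tubulin-modifying complex (chr9:108296020-108296212), was strongest, at 75.0% in normal and 2.22% in depressed over 11 listed cytosines. Stra6, the receptor for retinol uptake (chr9:58152549-58154796), was at 74.4 and 5.05% over 13. Ywhag, a phosphoserine-binding adaptor (chr5:135909904-135910325), was at 74.1 and 9.60% over 12. In Rassf1, a tumour suppressor gene (chr9:107557822-107557975), the levels were 66.6 and 3.06%.

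Further strong 3′ UTR regions belonged to Plxnc1, a semaphorin receptor (77.9% in normal and 6.65% in depressed), Slc4a3, an anion exchanger (70.6 and 11.0%), Dcps, the scavenger decapping enzyme (78.1 and 3.66%), and Gsk3b, a kinase of the Wnt pathway (58.3 and 13.1%). The highest depressed level of all lower exon and UTR regions was in this class as well, 28.5% against 85.0% in normal at a region named D10Wsu102e (chr10:83415214-83415305). That region and a further one named D10Wsu102e lie over 10 kb from the RefSeq span of the gene they name. A region named Gm10717 carries a name that was not matched to RefSeq, so no distance was measured for it. Actc1, cardiac actin (chr2:114047427-114049354), had the lowest normal level of the lower regions of the class, 53.9% against 24.7% in depressed.

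Regions with exon entries only made up 191 of the 272, with medians of 68.8% in normal and 5.82% in depressed. Of these, 11 lay in CpG islands, with a median of 26.7% in normal and 2.14% in depressed, and the 180 others had medians of 69.2 and 6.12%. Unlike the 5′ UTR islands, the exon islands were mixed. Iffo2 (9.69 and 1.27%), a gene of the intermediate filament family, Hnrnpa0 (15.6 and 1.48%), an RNA-binding protein gene, and Dusp7 (18.0 and 2.14%), a MAP kinase phosphatase, were low in normal. Igf1r, the receptor of insulin-like growth factor (55.7 and 5.81%), and Plec, the cytoskeletal linker plectin (65.8 and 9.20%), were higher. So were Zmynd8, a chromatin reader (72.7 and 19.8%), and Smarca4, the ATPase of a chromatin remodelling complex (73.9 and 12.3%). Nefm (26.7 and 1.53%) and Bsn (47.6 and 5.99%) lay between these sets. The exon-only regions outside islands ranged from 22.9 to 87.4% in normal, which takes in Nefm, Bsn and the higher set.

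Of the strong exon regions outside islands, Lrp10, a receptor of the lipoprotein receptor family (chr14:54469287-54469431), had 28 listed cytosines at 65.9% in normal and 20.7% in depressed. Sash1, a signalling scaffold (chr10:8750541-8753501), was at 70.0 and 6.99% over 21 cytosines spread over 2961 bp. Ppp1r12a, the subunit that targets a phosphatase to myosin (chr10:108264731-108264857), was at 40.5 and 9.04%.

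The 2 regions with the largest statistic of all carry no gene name in the list. They lie on chromosome 17 at 39843015 to 39846346 and 39848131 to 39848823 (mm10), both touching a single CpG island. RefSeq places Rn18s-rs5, a pseudogene of the small ribosomal RNA, between them: the first region ends 7 bases before it, and the second overlaps its last 72 bases. The second also lies wholly within the span of AY036118, a long noncoding RNA gene (39848112 to 39898385). Over 747 listed cytosines the first was at 15.3% in normal and 1.95% in depressed, and over 170 the second was at 18.6 and 1.77%. Together they hold 917 of the 3251 cytosines listed in the 272 lower regions, or 28.2%. A CHH region (39843029 to 39848112, 1616 cytosines, 7.38% in normal and 0.823% in depressed) and 5 CHG regions (6.43 to 10.5% in normal) lie over the first, and a further CHH region (9.67 and 0.647%) over the second. Ribosomal RNA genes exist in many near-identical copies, so the values at this locus are uncertain.

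**Figure D2:**
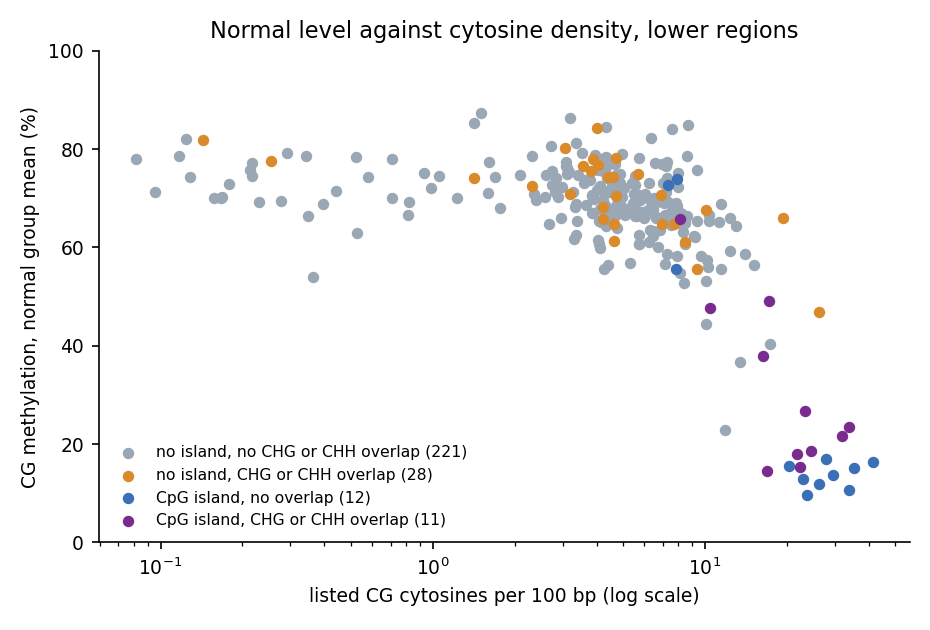
Normal-group CG methylation (%) against listed CG cytosines per 100 bp (log scale) in the 272 lower exon and UTR regions, coloured by CpG island and by overlap with a listed CHG or CHH region. Levels of regions with under 5 cytosines per 100 bp sit between 53.9 and 87.4%, and those with 20 or more between 9.69 and 46.9%.

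Across all 272 lower regions the normal level went down with density, as the plot of level against density shows. The 141 regions with under 5 listed cytosines per 100 bp had a median of 72.4% in normal, the 92 with 5 to 10 had 67.2%, the 23 with 10 to 20 had 56.4%, and the 16 with 20 or more had 16.0%. Spearman's rho between density and normal level was -0.59 over the 272 regions, -0.50 over the 249 outside islands and -0.68 over the 114 outside chromosomes 9 and 10. It was -0.40 over the 591 lower CG regions without exon or UTR. These are descriptions over regions that share the same 6 libraries. Regions entered the list by their difference between the groups, to which the normal level contributes, and the authors' cut-offs are unknown. How far the listing itself shapes the relation to density was not tested. Between density and the depressed level rho was 0.06 over the 272 regions, 0.25 outside islands and -0.13 outside chromosomes 9 and 10. The 16 densest regions had a median depressed level of 1.36%. Of the 19 regions below 40% in normal, 17 lay in CpG islands.

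CpG islands held 23 of the 272 lower exon and UTR regions (8.46%, interval 5.44 to 12.4%) and 2 of the 591 other lower CG regions (0.338%, interval 0.041 to 1.22%). The share of 8.46% depends on which regions are counted: it was 2.40% with a difference of at least 40 percentage points, 37.7% with at least 10 listed cytosines and 16.7% without chromosomes 9 and 10. Shores, the flanks of islands, gave no intermediate level: the 27 regions in a shore but in no island had a median of 70.2% in normal, beside 69.8% in the 222 in neither. The ratio of normal to depressed had a median of 10.5 in islands and 11.2 in the 222, so the low normal levels in islands came with depressed levels that were lower by a similar factor.

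A listed CHG or CHH region overlapped 39 of the 272 lower exon and UTR regions (14.3%, interval 10.4 to 19.1%) by at least 1 base, and 3 of the 591 other lower CG regions (0.508%, interval 0.105 to 1.48%). Over all 863 lower CG regions outside X and Y the share was 4.87%. Among exon and UTR regions with at least 10 listed cytosines it was 29.5%. Exons and UTRs also hold most of the listed lower regions of the other contexts, 83.1% of 1715 CHG and 65.9% of 1415 CHH regions. Few of all these lower regions overlapped a lower exon or UTR CG region, 1.98% for CHG and 1.91% for CHH. The overlapping ones were 34 distinct CHG regions, all lower in depressed, and 28 CHH regions, of which 27 were lower. Their median levels were 16.7% in normal and 0.468% in depressed for CHG, and 17.9 and 0.649% for CHH. Of the 39, 19 met both contexts.

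Within the 5′ UTR class the overlap was seen at 5 of the 12 island regions and at 0 of the 14 others. In exon-only regions it was seen at 6 of 11 in islands and 16 of 180 outside, and in 3′ UTRs at 12 of 55. Regions with no intron entry met a CHG or CHH region in 25 of 105 cases, and those with one in 14 of 167. The exception in direction was a CHH region over Rnf123, a ubiquitin ligase gene (chr9:108074997-108075158), at 0.168% in normal and 2.22% in depressed, inside a CG region of 4181 bp that was at 81.9% in normal and 1.09% in depressed.

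**Figure D3:**
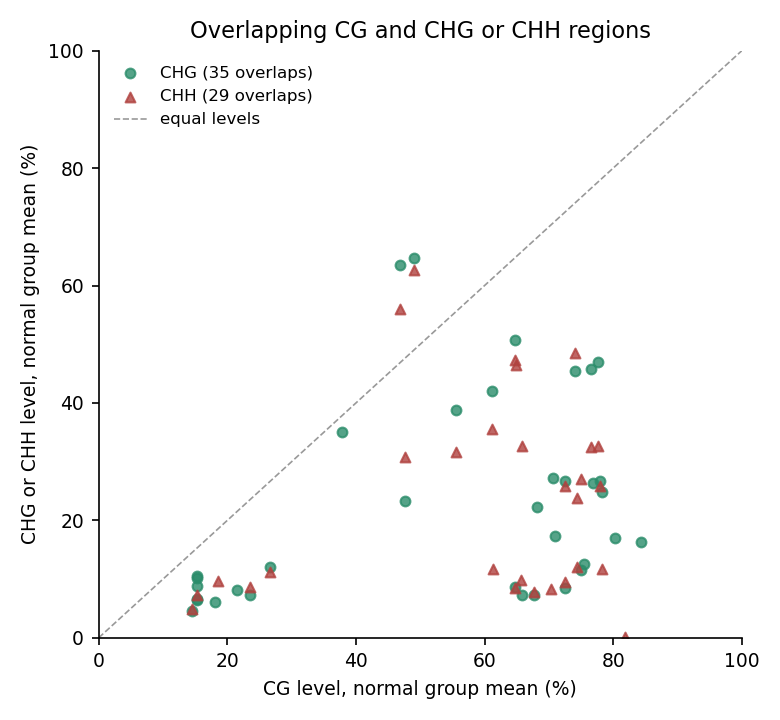
Normal-group level of each CHG (circles) or CHH (triangles) region against that of the exon or UTR CG region it overlaps, in percent, with a dashed line of equal levels. The points above the line belong to BC005537 and Gm10073, and the triangle near 0 is the CHH region over Rnf123.

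At most overlaps the CG level was above the CHG and CHH levels in the normal group. How complete the bisulfite conversion was could not be assessed here, so CHG and CHH levels are given as listed. Taking the highest overlapping lower CHG or CHH region at each of 38 exon and UTR regions, the median excess of CG was 38.3 percentage points, and CG was over 20 points higher at 23. At 2 regions the order was reversed. In the BC005537 5′ UTR the CG level was 49.0% while CHG was at 64.8% and CHH at 62.7%. In Gm10073, a pseudogene in RefSeq (chr8:106573279-106573335), CG was at 46.9%, CHG at 63.4% and CHH at 56.0%. At Arih1 the CHG level of 35.0% lay close to its CG level. In the depressed group these were low in every context: 0.943% CG, 0.895% CHG and 0.378% CHH at BC005537, and 4.68, 4.68 and 3.63% at Gm10073.

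Other transcripts with high non-CG levels in normal were Actb, cytoplasmic actin (CG 64.7%, CHG 50.6% and CHH 47.3%), Tspyl4 (CG 74.1%, CHG 45.4% and CHH 48.5%), Mobp, a myelin protein gene (CG 64.8% and CHH 46.5%), and Sar1a, a GTPase of vesicle budding (CG 76.5%, CHG 45.8% and CHH 32.6%). Low non-CG levels were found in islands, at Stox2 (CHG 4.55% and CHH 4.86%), Enah (CHG 7.25% and CHH 8.60%) and Nefm, a neurofilament subunit (CG 26.7%, CHG 12.1% and CHH 11.3%). They were also found outside islands beside high CG levels, at Iffo1 (CG 67.6%, CHG 7.35% and CHH 7.81%), Lrp10 (CG 65.9% and CHG 7.35%) and Pfkl, a glycolytic enzyme (CG 70.4% and CHH 8.24%). Over all overlaps with a lower region, the median normal CHG level was 8.75% at island regions (13 overlaps) and 25.5% at the others (22). The median CHH level was 10.5% (8 overlaps) and 25.9% (20). Overlaps are not separate loci. Several of the 13 lie over the longer region beside Rn18s-rs5, whose values are uncertain, and the 8.75% is among them. Outside islands, CHG and CHH regions that span both Wdr6 regions count at each.

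Lower exon and UTR regions fell on 18 of the 19 autosomes, with none on chromosome 12. Chromosomes 9 and 10 held 158 of the 272 (58.1%, interval 52.0 to 64.0%), close to the 349 of 591 (59.1%) among other lower CG regions. The classes were spread unequally: 35 of 55 in 3′ UTRs and 113 of 191 in exons only, but 10 of 26 in 5′ UTRs and 4 of 23 in islands. On chromosomes 9 and 10 the 10 regions in 5′ UTRs had a median normal level of 70.8%, with 1 in an island. On the other chromosomes the 16 had 19.2%, with 11 in islands.

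**Figure D4:**
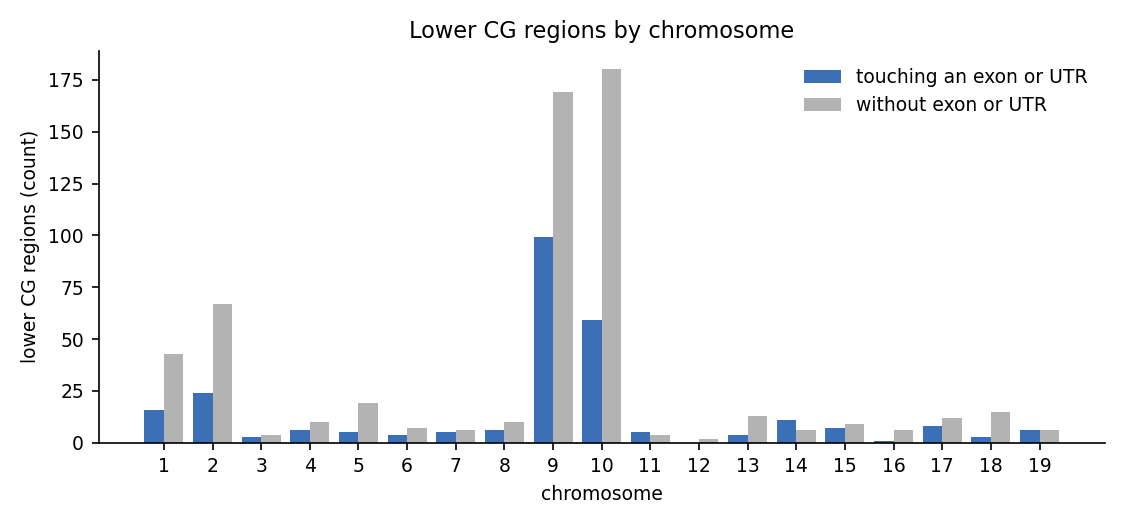
Number of CG regions lower in the depressed group on each autosome, for the 272 that touch an exon or UTR (blue) and the 591 that do not (grey). Chromosome 9 has 99 and 169, chromosome 10 has 59 and 180, and chromosome 14 has more regions with than without an exon or UTR, 11 against 6.

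The fullest 1 Mb window lay on chromosome 9 from 108 to 109 Mb, with 13 lower exon and UTR regions (medians 72.5% in normal and 8.05% in depressed) beside 3 other lower CG regions. It covers Lamb2, a laminin chain, with 3 regions between 65.9 and 68.4% in normal and 8.39 and 18.7% in depressed. Bsn, the presynaptic scaffold bassoon, had 2 regions, at 47.6 and 5.99% in a CpG island and at 74.3 and 13.2% in a shore, both under CHG or CHH regions. Wdr6, a gene for a repeat protein that acts with a transfer RNA methyltransferase, had 2 as well (72.5 and 8.05%, and 77.9 and 13.0%). The other named genes in the window were Nicn1, Qrich1, Rnf123, Slc25a20, a carnitine carrier, and Usp19, a deubiquitinase.

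Besides Lamb2, Bsn and Wdr6, several genes had more than 1 lower exon or UTR region. The 3 regions of Ank3, which anchors channels at the axon initial segment, ran from 60.6 to 75.7% in normal and 3.81 to 19.0% in depressed, and the 3 of Med16, a Mediator subunit, from 61.7 to 79.2% in normal and 3.27 to 12.4%. Map1a, a microtubule-associated protein gene, had 2 (55.6 and 5.57%, 66.4 and 15.0%), and Tln2, which encodes the integrin-binding talin, had 2 (85.2 and 0.780%, 69.7 and 15.7%). Further genes with 2 were Sorl1, a sorting receptor (67.1 and 80.6% in normal), Lrp1, an endocytic receptor (69.3 and 77.9%), Sar1a (76.5 and 79.1%) and D10Wsu102e. Regions of a gene share their embryos and their neighbourhood, so they are not independent.

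Of the 272 regions, 29 spanned over 1000 bp, with a median length of 2593 bp and 7 listed cytosines. Apart from the chromosome 17 region with 747, these had at most 21. On chromosomes 9 and 10 lay 24 of the 29, and 25 had a repeat entry. The lower CG regions without exon or UTR held 28 as long, 26 of them on chromosomes 9 and 10 and 27 with a repeat entry, so such long regions were listed with and without exons and UTRs. The longest were Csnk1g2 with 5231 bp, Elavl3, a neuronal RNA-binding protein gene, with 5111 bp (70.0 and 2.10%), Pear1, a platelet receptor gene, with 5045 bp (72.9 and 6.97%), and Trim29 with 4943 bp (77.9 and 1.25%). The list gives 5 cytosines for the whole Csnk1g2 region, while the promoter window inside it alone shows 10 CG cytosines on both strands. At Csnk1g2 the level therefore rests on a small part of the region's length.

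The 3 regions that were higher in the depressed group lay on chromosomes 9 and 10. An exon of Tmtc2, a protein of the endoplasmic reticulum (chr10:105369996-105370051), was at 15.1% in normal and 74.4% in depressed over 5 cytosines. Myo1a, the brush border myosin (chr10:127715656-127717879), was at 31.1 and 52.7% over 11, and Ano10, a membrane protein of the anoctamin family (chr9:122259052-122261525), was at 30.9 and 51.1% over 6. The smallest differences of all, by contrast, belonged to CG-dense islands, those of Iffo2, Saysd1, Ppp1r15b and Nptx1, whose normal levels were between 9.69 and 12.8%. Gm10717 (chr9:3029256-3029314), which has a satellite repeat entry, was the lowest in normal among the lower regions outside islands, 22.9% against 10.5%.

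Gene lists by function show how the 234 genes spread, and each count is of genes with a lower exon or UTR region among those of the list in RefSeq. Over all 21896 protein-coding genes of RefSeq it was 228, or 1.04%, without regard to gene length, and no list was tested against it. List totals count RefSeq genes of any kind, coding or not, so list shares and shares of protein-coding genes do not have the same base. Channels and transporters gave 15 of 699, among them Trpv2, a cation channel (60.1% in normal and 0.873% in depressed), and Slc38a3, an amino acid transporter (56.4 and 3.49%). Cytoskeletal and motor genes gave 14 of 299, among them Tpm1, tropomyosin (76.3 and 5.82%), Myh6, a cardiac myosin (70.5 and 0.965%), and Kif21b, a kinesin (68.9 and 1.09%). Transcription factors by family name gave 8 of 884, with Zbtb16 at 74.5 and 2.42% and Smad3, a TGF-beta effector, at 74.8 and 13.0%.

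The ubiquitin system gave 7 of 472, with Rnf26 at 75.2 and 5.52%. Phosphatase genes gave 6 of 197, with Ppp2r5d at 66.5 and 4.07%. Adhesion and matrix genes gave 6 of 369, with Fn1, fibronectin, at 58.2 and 0.762% and Cdh23, a cadherin of hair cells, at 70.2 and 2.75%. GTPase regulators gave 5 of 282, with Arhgef17 at 70.3 and 13.4%. Kinases gave 4 of 213 (Camk1d, Csnk1g2, Gsk3b and Mast1), chromatin and DNA methylation genes 4 of 232, with Kmt2d, a histone methyltransferase, at 66.8 and 3.96%, and developmental signalling genes 4 of 168, with Acvr2b, an activin receptor, at 72.4 and 5.62%. Translation and folding genes gave 3 of 529, with Eef1a2, an elongation factor, at 68.2 and 4.82%.

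Axon guidance gave 2 of 86, Plxnc1 and Rtn4ip1, of which the latter came in by its symbol only and encodes a mitochondrial protein. Stress hormone and monoamine genes gave 1 of 63, the serotonin receptor subunit Htr3b, and imprinted genes 0 of 74. The lists for cell types apply to methylation only as counts: markers of the blastocyst lineages gave 0 of 42, those of cumulus cells, oocyte and sperm 0 of 26, and those of neurons 4 of 40 (Ank3, Bsn, Elavl3 and Nefm). In the CHG and CHH contexts genes were counted by an entry of any kind on any chromosome. Those counts therefore have a wider base than the CG counts above and cannot be set directly against them. A lower CHG or CHH region was listed for 23 of the 40 neuronal genes, 5 of the 42 blastocyst genes and 1 of the 26 of cumulus cells, oocyte and sperm. Over the protein-coding genes it was 1767 of 21896 (8.07%). The neuronal list was drawn up with earlier results of these data known, so its count is no independent evidence. Among the larger lists the CHG or CHH count was 86 of 699 for channels and transporters, 55 of 299 for cytoskeletal genes, 57 of 282 for GTPase regulators and 43 of 213 for kinases. The median normal level of a list's regions stood between 53.5% (phosphatases) and 74.5% (ubiquitin system) over lists with more than 2 regions, beside 69.2% over all 272.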

How the data were processed

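Per the labels' protocols, DNA of single embryos was bisulfite-converted and primed at random. The submitters' processing notes name Trim Galore 0.3.3, Bismark, SAMtools and the build mm10. The region caller, its cut-offs and coverage minimum, and how embryos were averaged were not given in the sources used here. The deposited table gives, per the file headers, each group's mean methylation as a fraction, multiplied to percent here, and a region statistic, a score used only to rank regions. Its 18732 annotation entries were collapsed to 9707 regions (839 entries belong to the 275 regions described). A gene is the one named in an exon or UTR entry, and 231 of 234 matched RefSeq.

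Only descriptions were made, with 95% intervals over regions, exact binomial for shares and from ranked values for medians. Python 3.11.15 was used with pandas 2.3.3, numpy 2.4.6, SciPy 1.17.1 and matplotlib 3.10.9. The scripts were tested on simulated data. The regions, gene lists and rules were chosen with earlier results of these data known. Genes named are all higher regions, the 8 strongest per class (predicted genes passed over), and the 4 longest, densest and least different. Also named by rule are genes with several regions and up to 4 of the strongest genes per list. The list examples Trpv2, Slc38a3, Tpm1, Myh6, Kif21b, Zbtb16, Smad3, Ppp2r5d and Fn1 were not among the strongest 4 of their list. They were picked outside the rule, after their values were seen. Other genes (the 5′ UTR regions outside islands, exon islands, those with extreme levels and those with CHG or CHH overlap) were chosen after their values were seen. Depth is unknown, so the precision of a level is unknown too. Alternatives varied the cut on difference, cytosines, statistic, length, chromosomes and annotation. Some genes that the rule picks are not reported here.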

Additional observations from a re-analysis of the deposited data

How the results depend on the processing

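The 7 main values were recomputed under 8 to 11 alternatives where these applied, and 53 of 64 values stayed within the interval of the value reported, while 11 did not. Staying within an interval says little where it is wide. That of the 5′ UTR median normal level (64.1%) ran from 16.9 to 71.3%. It took in 19.2% without chromosomes 9 and 10, 23.6% with the cut on the statistic and 71.3% with a difference of at least 40 points. With at least 10 listed cytosines, the median normal level was 62.3%, that of 5′ UTR regions 15.8%, the share on chromosomes 9 and 10 41.0%, the share with CHG or CHH overlap 29.5% and the share in islands 37.7%. Without chromosomes 9 and 10 the share lower was 100% (all 114), the median normal level 66.6% and the island share 16.7%. With a statistic at or above the median of all CG regions, the median normal level was 68.1% and the island share 13.7%. With a difference of at least 40 points the island share was 2.40%, since island regions had low normal levels to begin with. The overlap share was 13.7% without the 2 regions beside Rn18s-rs5, an alternative chosen after seeing the data. No paired analysis was possible because the list holds group means only, and leaving out each embryo in turn could not be run for the same reason.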
